A study of Mus musculus with 2 samples.

Results

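The pericentral Wnt target genes Glul, Axin2, Tbx3, Lgr5, Rhbg, Rnf43, Znrf3, Nkd1 and Sp5 were examined in mouse liver with and without hepatocyte Lpcat3. They were taken by gene symbol from the platform annotation, which gave 9 genes of 18193 and 20 probe sets of 45101. A probe set is a group of short oligonucleotides on the array that together report 1 transcript. The study hybridised 2 Affymetrix whole-transcriptome mouse arrays, 1 per genotype. The control array held liver RNA of Lpcat3fl/fl mice, which carry the floxed allele and no Cre. The other array held liver RNA of Lpcat3fl/fl Albumin-Cre mice, in which the albumin promoter drives Cre in hepatocytes. Other liver cells keep the gene in this model, and there was no group with Cre and an intact Lpcat3 gene. Each array carried pooled RNA from 5 male mice. All were aged 16 weeks, had received the western diet for 9 weeks from 7 weeks of age, and were fasted for 6 hr before harvest.

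Wnt ligands and R-spondins made by endothelial cells of the central vein reach the hepatocytes around it. There they stabilise beta-catenin, which enters the nucleus and acts with TCF/LEF factors on target genes. The outcome is a pericentral zone that captures ammonia as glutamine and carries much of the cytochrome P450 activity, opposite a periportal zone of urea synthesis and gluconeogenesis. Several of the target genes encode brakes on the pathway itself, so their mRNAs are commonly read as a gauge of Wnt activity.

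Signals are MAS5 intensities in arbitrary units, scaled to a trimmed mean of 500 on both arrays. A value under 86.6, the median of all signals, was treated as too dim to rank and set to that floor. A probe set counted as measured if either array reached the floor. The log2 ratio is Albumin-Cre over floxed, the control, and a difference was called at 2-fold. Since each genotype was a single pool, genotypes could not be tested and no value below has a replicate check. As a rough ruler, log2 ratios of probe sets for the same gene differed with a pooled SD of 0.29 over 4476 genes, which leaves out the spread between mice. Lpcat3 itself read 5173 in the floxed pool and 2198 in the Albumin-Cre pool, a log2 ratio of -1.23, on a single probe set; whether it lies in the deleted part of the gene is unknown here. The hepatocyte marker list had 14 measured genes, all above the floor on both arrays, with a median log2 ratio of -0.14 and a summed signal of 411525 in the floxed pool and 376808 in the Albumin-Cre pool.

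None of the pericentral Wnt target genes differed by 2-fold between the genotypes, and their ratios lay on both sides of 0. Tbx3, Lgr5, Nkd1 and Rnf43 read lower in the Albumin-Cre pool, while Axin2, Glul and Sp5 read slightly higher and Rhbg and Znrf3 nearly equal. All 9 had at least 1 measured probe set, and 12 of their 20 probe sets were measured. None of the 12 was at least 2-fold higher or lower. Among all 24322 measured probe sets, 3.05% differed by that margin, 2.26% higher and 0.785% lower. By gene, 0 of 9 were called, where 3.40% of 12290 measured genes were, 2.70% higher and 0.700% lower. These shares would give less than 1 call among 9 genes, so a count of 0 does not set the group apart. Of the 12 measured probe sets, 6 were above 0 and 6 below. The gene median was -0.04, and that of all measured genes was 0.01.

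**Figure D1:**
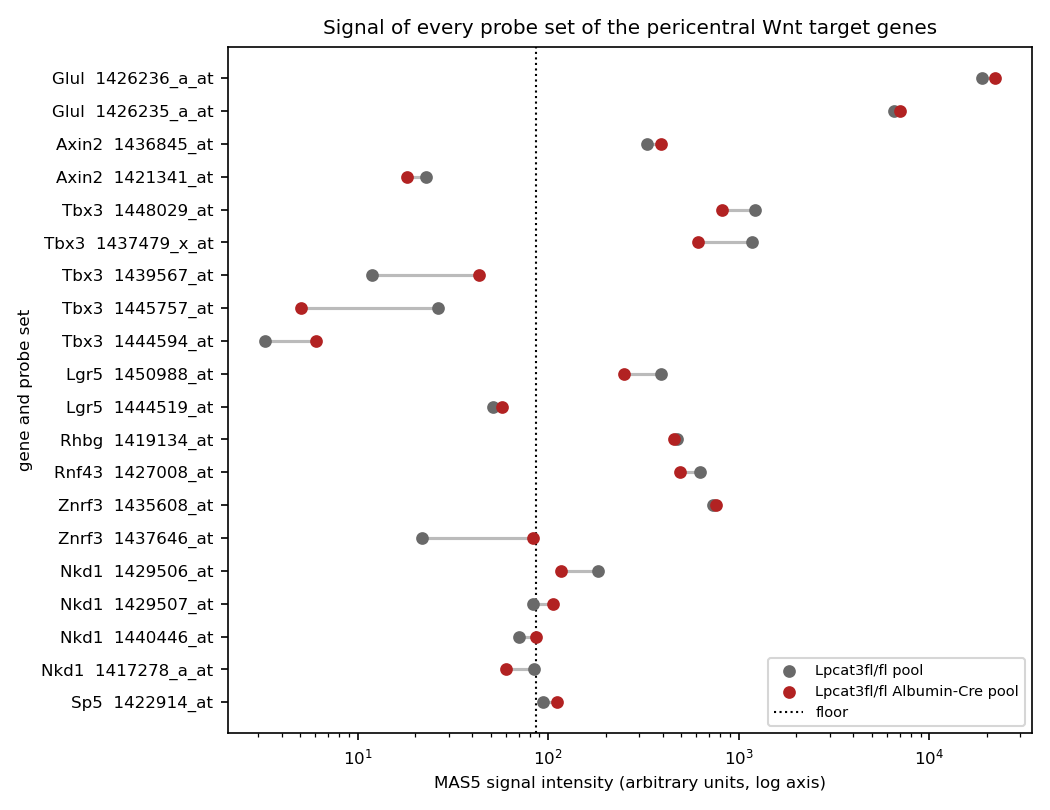
Signal of each of the 20 probe sets in the Lpcat3fl/fl pool (grey) and the Albumin-Cre pool (red), on a log axis in arbitrary units, with the floor of 86.6 dotted. Levels are to be compared within a row only. The widest gaps to the right of the floor are those of Tbx3, Lgr5 and the probe set 1429506_at of Nkd1, each with the Albumin-Cre point on the left.

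Glul and Rhbg are the ammonia-handling genes of the group. Glul encodes glutamine synthetase, which joins ammonia to glutamate in the last rows of hepatocytes before the central vein. Its probe set 1426236_a_at read 18947 in the floxed pool and 22265 in the Albumin-Cre pool, a log2 ratio of 0.23. The second, 1426235_a_at, gave 6548 and 7014, a ratio of 0.10. Both differences were smaller than the 0.29 spread between probe sets of a gene. The brighter probe set was slightly above that spread under quantile normalization, at 0.33, and loess, at 0.32. Under median centring it was at 0.19. Rhbg encodes an ammonia channel of the basolateral membrane. Its only probe set, 1419134_at, had signals of 472 and 460.0, which is a log2 ratio of -0.04.

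Tbx3 had the widest gap of the group on a single probe set. It encodes a T-box repressor that marks pericentral hepatocytes. On 1448029_at the signal was 1212 in the floxed pool and 817 in the Albumin-Cre pool, 1.48-fold lower with a log2 ratio of -0.57. On 1437479_x_at it was 1173 and 610.2, 1.92-fold lower with a log2 ratio of -0.94. The second name ends in x, which marks probes that may cross-hybridise with other transcripts. Both measured probe sets of Tbx3 were therefore lower in the Albumin-Cre pool, by 1.99 and 3.31 times the SD between probe sets. The remaining 3 probe sets of Tbx3 were under the floor on both arrays. Their signals were 11.9 and 43.4, 26.4 and 5.07, and 3.25 and 6.02 in the floxed and Albumin-Cre pools, and no fold is given for them.

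Sp5 encodes a zinc finger factor induced by beta-catenin in many tissues. Its single probe set, 1422914_at, lay just above the floor, with 94.4 in the floxed pool and 111 in the Albumin-Cre pool, a log2 ratio of 0.23. Among measured probe sets with a geometric mean signal under 200, 3.96% differed by 2-fold in either direction, and 1.40% did so at 1000 or more.

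Because TCF/LEF factors recognise a short DNA motif, the 250 bases before the transcription start were searched for the string CTTTGA, a form of its core, on both strands. Other forms of the core were not searched. The RefSeq promoter table for GRCm38.p6 held 6 windows for 5 of the genes, Glul, Axin2, Rnf43, Nkd1 and Sp5. Tbx3, Lgr5, Rhbg and Znrf3 were not matched. Sp5 alone among these 5 genes had this string, at 2 places on the gene's own strand, starting 204 and 104 bases before the start site. Of all 32851 windows in the table, 13.8% held it. The match describes letters only, not binding. Sp5 is shown, with the string in capitals, because it holds CTTTGA. Glul is shown because it is the best known gene of the group and does not hold CTTTGA in this window. The Sp5 window is chr2:70474673-70474922 and that of Glul is chr1:153899679-153899928, both on the plus strand and written 5′ to 3′.
Sp5: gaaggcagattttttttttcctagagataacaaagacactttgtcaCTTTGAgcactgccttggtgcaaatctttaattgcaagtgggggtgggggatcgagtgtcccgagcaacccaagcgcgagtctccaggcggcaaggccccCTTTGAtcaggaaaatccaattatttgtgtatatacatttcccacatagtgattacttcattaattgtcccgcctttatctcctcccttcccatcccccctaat
Glul: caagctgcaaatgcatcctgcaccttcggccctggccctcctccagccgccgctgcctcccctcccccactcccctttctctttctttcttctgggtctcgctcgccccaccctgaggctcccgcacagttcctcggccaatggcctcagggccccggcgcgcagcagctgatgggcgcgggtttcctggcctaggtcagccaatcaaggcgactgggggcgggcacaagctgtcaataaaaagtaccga

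Lgr5 encodes a receptor for R-spondins, the secreted proteins that strengthen Wnt signalling. On 1450988_at the signal was 392 in the floxed pool and 249.96 in the Albumin-Cre pool, 1.57-fold lower with a log2 ratio of -0.65. This was the lowest ratio of the 9 genes when the brightest probe set stood for each. The other probe set, 1444519_at, was under the floor in both pools, at 51.6 and 57.5, so the difference in Lgr5 rests on a single probe set.

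Axin2, Nkd1, Rnf43 and Znrf3 are the feedback inhibitors. Axin2 is a scaffold of the complex that marks beta-catenin for destruction, and its mRNA is the most widely used readout of the pathway. Its probe set 1436845_at read 329 in the floxed pool and 392 in the Albumin-Cre pool, a log2 ratio of 0.25, the highest of the 9 genes. Its second probe set, 1421341_at, was under the floor on both arrays, at 22.9 and 18.2.

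Nkd1 binds Dishevelled and dampens the signal inside the cell. Its 4 probe sets did not run the same way. On 1429506_at the signal was 182 in the floxed pool and 117 in the Albumin-Cre pool, 1.55-fold lower with a log2 ratio of -0.63. On 1429507_at it was under the floor in the floxed pool, at 83.1, and 106 in the Albumin-Cre pool, at least 1.23-fold higher. The other two were under the floor in both pools, with 84.5 and 60.2 on 1417278_a_at and 70.5 and 86.1 on 1440446_at. Averaged over the 2 measured probe sets, the log2 ratio of Nkd1 was -0.17.

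Rnf43 and Znrf3 encode membrane E3 ubiquitin ligases that clear Frizzled receptors from the cell surface. Rnf43 read 629.5 in the floxed pool and 494 in the Albumin-Cre pool on its only probe set, 1427008_at, a log2 ratio of -0.35. Znrf3 had 732 and 763 on 1435608_at, a log2 ratio of 0.06. The other Znrf3 probe set, 1437646_at, was at 21.7 and 83.0, under the floor in both pools. The paired ligases therefore sat on opposite sides of 0, the difference in Rnf43 being 1.22 times the SD between probe sets and that in Znrf3 0.21 times.

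**Figure D2:**
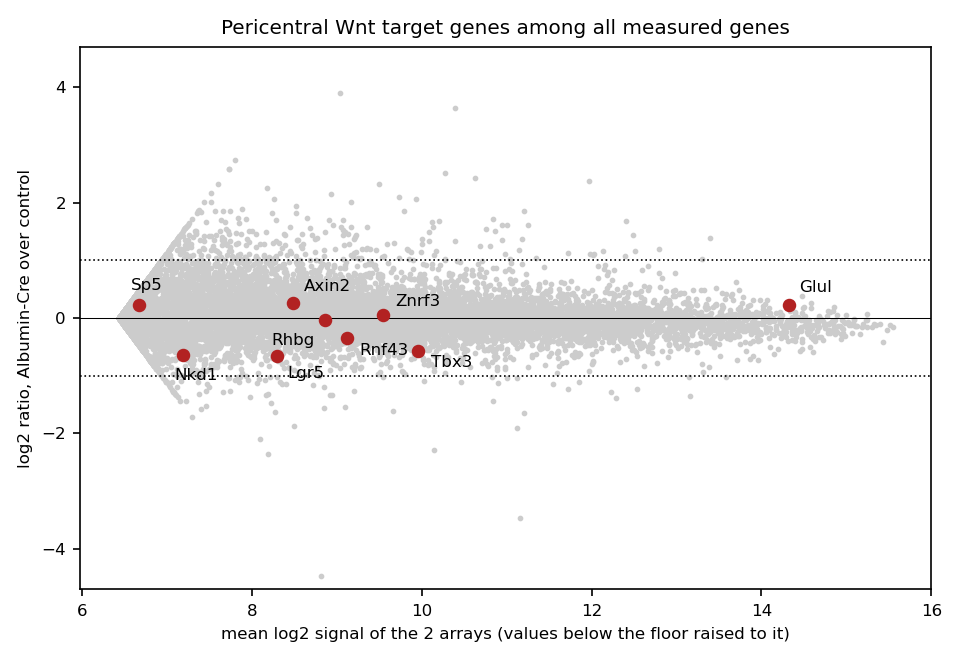
Mean log2 signal of the 2 arrays against the log2 ratio of Albumin-Cre over floxed for all 12290 measured genes (grey), with the pericentral Wnt target genes in red and 2-fold dotted. The red points lie between -0.65 and 0.25, inside the dotted lines.

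At a lower margin of 1.5-fold, 3 of the 12 measured probe sets were lower and none higher, where 4.73% and 8.09% of all measured probe sets were. The 3 were 1437479_x_at of Tbx3, 1450988_at of Lgr5 and 1429506_at of Nkd1, and the other Tbx3 probe set, at 1.48-fold, fell just short. By gene, 2 of 9 were lower at 1.5-fold, Lgr5 and Nkd1, and none was higher, where 3.83% and 9.07% of all measured genes were. Both calls were lost with a pseudocount of 50, at -0.56 for Lgr5 and -0.47 for Nkd1. With probe sets averaged, Nkd1 was not called and Tbx3 was, at -0.76. Under median centring Lgr5, Nkd1 and Tbx3 were all called, at -0.69, -0.68 and -0.61. Setting the median of the hepatocyte markers to 0 adds 0.14 to every ratio and brings the median of all measured genes to 0.15. The hepatocyte marker median was itself -0.02 under quantile normalization, -0.04 under loess and -0.19 under median centring. Its size thus varied with the scaling, and the cause of its distance from 0 was not tested. With the markers at 0, Lgr5 was at -0.51, Nkd1 at -0.49, Tbx3 at -0.42 and Rnf43 at -0.20, and none of them reached 1.5-fold. Axin2 was then at 0.40, Glul at 0.38, Sp5 at 0.37 and Znrf3 at 0.20. Rhbg changed sign to 0.11, and so did the median of the 9 genes, also 0.11. In RNA of whole liver, fewer cells that express a gene and less of its RNA per cell cannot be told apart.

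**Figure D3:**
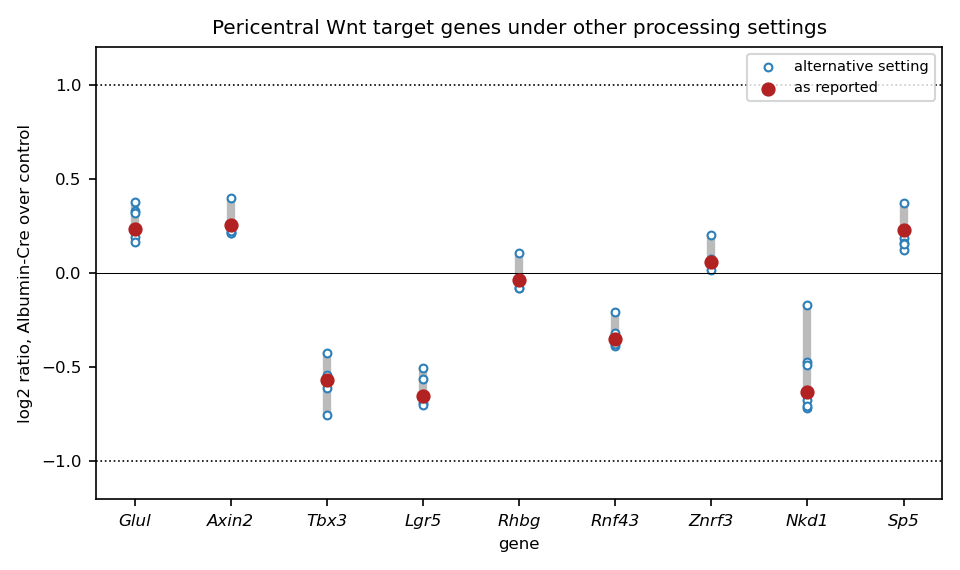
Log2 ratio of Albumin-Cre over floxed for each pericentral Wnt target gene as reported (red) and under each other processing setting (open points, joined by a grey bar); dotted lines mark 2-fold. Nkd1 has the longest bar, from -0.72 to -0.17, and Rhbg is the gene whose points lie on both sides of 0.

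Upstream of the target genes, no ligand or receptor gene was called at 2-fold with the floor in place, where 3.40% of all measured genes were. However, 4 of 12 measured ligand genes and 1 of 12 receptor genes had 1 pool under the floor and so only a bound. In the list of Wnt and R-spondin ligands with their secretion factors, 12 of 25 genes were measured and the median log2 ratio was 0.13. Rspo3, the R-spondin of central vein endothelium, read 241 in the floxed pool and 314 in the Albumin-Cre pool, a log2 ratio of 0.38. Wnt2, a ligand made by liver endothelial cells, had 197 and 139.9, a log2 ratio of -0.49. Wnt9b, its partner at the central vein, was under the floor in both pools. Wnt11 was at -0.73 and Wnt5b at -0.61 (-1.07 on its other probe set), both ligands known mainly for signalling without beta-catenin. Wls, which carries Wnt proteins to the cell surface, was at 0.90 on 1 probe set, with 0.33 as the lowest of its 3. Liver endothelial markers, the cell type that supplies these ligands, had a median of 0.33. At 2-fold 3 of 17 were higher, where 2.70% of all measured genes were. Their summed signal was 8542 in the floxed pool and 11035 in the Albumin-Cre pool. The part of endothelial content in the ligand values was not tested.

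Of 12 measured receptor genes, 6 were above 0 and 6 below, with a median of 0.04. Lgr4, the R-spondin receptor found throughout the liver lobule, read 4501 in the floxed pool and 3426 in the Albumin-Cre pool, a log2 ratio of -0.39. Lrp5, a Wnt co-receptor, was at 0.49. Fzd10 was 154 in the floxed pool and under the floor in the Albumin-Cre pool, at least 1.77-fold lower.

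Among secreted and surface inhibitors, 1 of 9 measured genes was called 2-fold higher and none lower, where 2.70% and 0.700% of all measured genes were. The median of the inhibitors was -0.05 and changed sign with the processing, from -0.60 to 0.16. Notum, an enzyme that removes the lipid from Wnt proteins and is itself induced by beta-catenin, read 1192 in the floxed pool and 634 in the Albumin-Cre pool on its single probe set. It was 1.88-fold lower, a log2 ratio of -0.91. Frzb, a Wnt-binding decoy, was at 87.0 in the floxed pool, just above the floor, and 212 in the Albumin-Cre pool, 2.44-fold higher, a call that was lost with a pseudocount of 50. Sfrp1, another decoy, was at 0.92 and at 0.55 on its other measured probe set. Sfrp5, a decoy as well, was 143 in the floxed pool and under the floor in the Albumin-Cre pool, at least 1.65-fold lower.

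Inside the cell, none of 18 measured genes of Dishevelled and the destruction complex and none of 14 of the nuclear complex was called at 2-fold. The share among all measured genes was 3.40%, so counts of 0 in lists of this size do not set them apart. The medians of the 2 lists were 0.10 and -0.03. Beta-catenin itself, Ctnnb1, read 10880.3 in the floxed pool and 10779 in the Albumin-Cre pool, a log2 ratio of -0.01. The lowest of its 3 probe sets was at -0.64. Apc, the scaffold of beta-catenin destruction, was at 0.13, and Csnk1e, a kinase of the pathway, at 0.77 and 0.57 on its 2 probe sets. Tcf7l2, the main TCF factor of hepatocytes, was at -0.17. Tcf7l1 was at -0.83 on 1 probe set and 0.54 on the other. Over all 6 other Wnt lists, 73 of 109 genes were measured and the median was 0.07. Of the 73, 4 were called 2-fold higher and none lower, where 2.70% and 0.700% of all measured genes were.

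Of those 4 higher genes, 3 came from the list of Wnt target genes of other tissues, in which 8 of 14 were measured and the median was 0.79. They were Jun, with 408 in the floxed pool and 1759 in the Albumin-Cre pool (log2 ratio 2.11, or 1.38 on its other probe set), Myc (1.66) and Cd44 (1.58). Ccnd1, which drives entry into the cell cycle, was at 0.93 and up to 1.18 on its other probe sets. Jun and Myc are also immediate early genes, and Cd44 is an adhesion molecule of leukocytes. Macrophage markers were higher in the same array, 7 of 14 at 2-fold with a median of 1.03 and a summed signal of 18875 in the floxed pool and 39846 in the Albumin-Cre pool. Among T, B and NK cell markers, 5 of 7 measured genes were higher at 2-fold, all of them B or plasma cell genes. No T or NK cell marker was called with this floor. The summed signal was 972 in the floxed pool and 4783 in the Albumin-Cre pool. Of the 7, 5 were under the floor in the floxed pool and so counted as measured through the Albumin-Cre pool alone. Stellate cell and fibroblast markers were higher at 2-fold in 5 of 13, with a summed signal of 18582 and 28139.6. Of all measured genes, 2.70% were 2-fold higher. The part of these cells in the values of Jun, Myc, Cd44 and Ccnd1 was not tested.

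**Figure D4:**
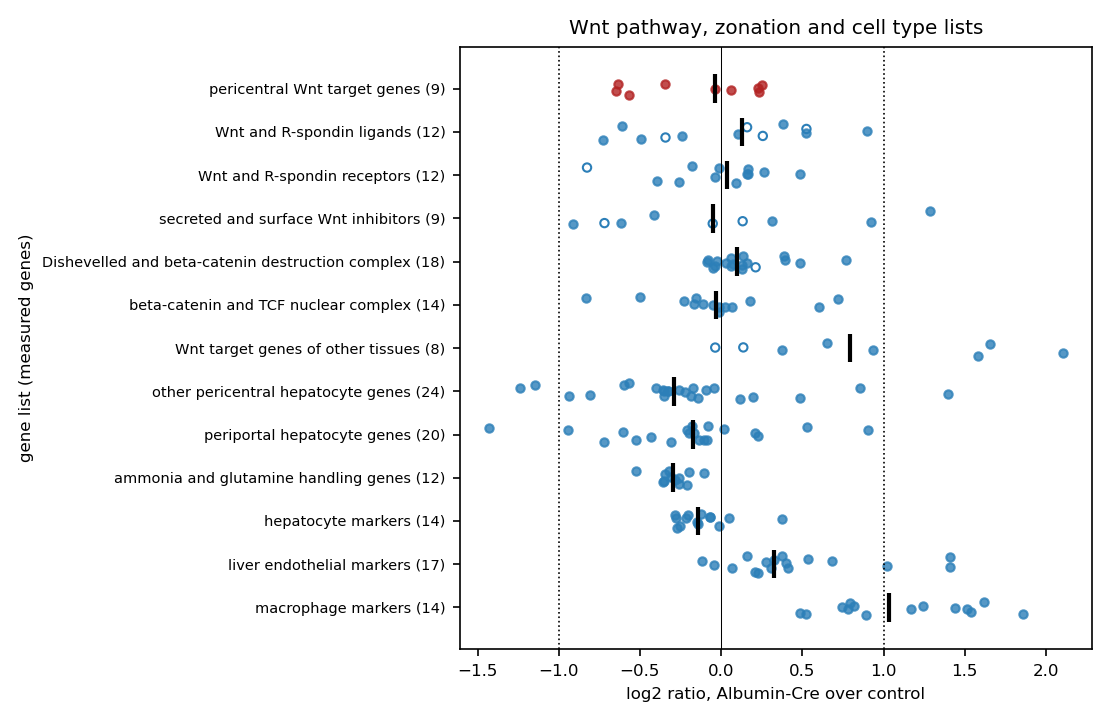
Log2 ratio of Albumin-Cre over floxed for each measured gene of a list, with the number measured in brackets; black bars are medians, open points have 1 array under the floor and are bounds, and dotted lines mark 2-fold. The pericentral Wnt target genes (red) are spread around a median of -0.04, whereas pericentral and periportal hepatocyte genes have medians of -0.29 and -0.18 and macrophage markers 1.03.

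Other genes of the pericentral zone were compared, since beta-catenin supports many of them. Of 24 measured, 19 were below 0, 1 was at least 2-fold higher and 2 were at least 2-fold lower. Of all 12290 measured genes, 5994 were below 0, 2.70% were 2-fold higher and 0.700% lower. The median log2 ratio of the 24 was -0.29, or -0.22 under quantile normalization and -0.21 under loess. Cyp7a1, the rate-limiting enzyme of bile acid synthesis, was at -1.24 and the vasopressin receptor gene Avpr1a at -1.14. The glutathione transferase gene Gstm3 was at 1.40, or 1.92 on its other measured probe set. Its sequence is close to that of other Gstm genes, so cross-hybridisation is possible. Cyp1a2 was at -0.81, with 13347 in the floxed pool and 7637 in the Albumin-Cre pool, and Cyp2c54 at -0.93. Other Cyp2c genes are on the list too, and cross-hybridisation was not examined for Cyp2c54. Cyp2e1, a cytochrome of the same zone, had 35733 and 33455, a log2 ratio of -0.10. The 2 neighbours of Glul in glutamate handling were below 0, Oat at -0.26 and the glutamate transporter gene Slc1a2 at -0.35, while Glul itself was at 0.23. The list of ammonia and glutamine handling shares both genes and was made without Glul and Rhbg. On their brightest probe sets its 12 measured genes were below 0, with a median of -0.29, and none reached 1.5-fold. Slc38a2, a glutamine transporter gene at -0.32, had another probe set at 0.20. The urea cycle gene Asl was lowest at -0.52, Slc38a3, of the same transporter family, was at -0.36, and Cps1, which commits ammonia to urea, was at -0.20.

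Genes of the opposite, periportal zone were also mostly below 0, 15 of 20, with a median of -0.18. At 2-fold 1 gene was lower, where 0.700% of all measured genes were. The median was -0.08 under quantile normalization and -0.09 under loess. The gene lower at 2-fold was Etnppl, a phospholyase gene, at -1.43. Its other measured probe set was at -0.89, short of 2-fold. The adhesion gene Cdh1 was at -0.94 and the immunoglobulin transporter gene Pigr at -0.72, whereas Mfsd2a, a lysophospholipid transporter gene, was at 0.91. Fbp1, of gluconeogenesis, was at -0.14. Of the hepatocyte markers, 12 of 14 were below 0 as well. The differences between these lists were not tested.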

How the data were processed

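RNA of 5 livers was pooled per genotype and hybridised to 1 array each. The authors processed the arrays with MAS5 (submitters' processing notes, no version) and, per the methods, GenespringGX; the deposited values are linear signal intensity. Scaling to a common mean hides any change shared by most transcripts. Detection calls were not used here, and the number of arrays limits precision.

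Of 45101 probe sets, 34945 had 1 gene symbol in the platform annotation, 932 had several and were left out, 9160 were unnamed here and 64 were controls. Symbols were matched by Entrez identifier to RefSeq names (GRCm38.p6), found for 18032 of 18193 genes. Where a gene had several probe sets, that with the highest average log2 signal stood for it, and log2 ratios were taken after the floor. Every probe set of the 9 genes was used. The members and lists were chosen with earlier results of these data known. Other genes named are the up to 4 largest ratios and the highest signal of each list, with Ctnnb1, Lgr4, Rspo3, Wnt2, Wnt9b, Apc, Tcf7l2, Cyp2e1, Cyp1a2, Oat and Slc1a2 fixed. With 2 arrays no likeness of pattern between genes was computed. No list test was made. The 1.5-fold margin was an alternative threshold.

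Counting was tested on simulated data. Changes were simulated only in brighter genes, with noise scaled from the spread between probe sets. Changes in dim genes and the spread between mice were thus not covered. Alternatives were median centring, quantile normalization, loess, floors at percentile 25 and 75, no floor, a pseudocount of 50, averaging a gene's probe sets, omitting those that end in _s_at, _x_at or _a_at, thresholds of 1.5-fold and 3-fold, and, added after seeing the data, hepatocyte markers set to 0. Python 3.11.15, numpy 2.4.6, pandas 2.3.3, statsmodels 0.14.6 and matplotlib 3.10.9 were used.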

Additional observations from a re-analysis of the deposited data

How the results depend on the processing

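Of 12 alternatives, 9 or 10 gave a ratio for each pericentral Wnt target gene, as the 1.5-fold and 3-fold thresholds give none. A lower floor, or none, cannot change a ratio where both arrays were above the floor. Where a ratio was given, the genes kept their direction, except Rhbg, which was at 0.11 with hepatocyte markers set to 0. That setting, chosen after seeing the data, also took the median of the 9 genes from -0.04 to 0.11. With probe sets ending in _s_at, _x_at or _a_at left out, the median was -0.19 over 8 genes. Nkd1 went from -0.63 to -0.17 when its probe sets were averaged. At 1.5-fold, 2 of the genes and 3 of their probe sets were lower. With the floor at percentile 25, 1 probe set, 1437646_at of Znrf3, was 2-fold higher. With the floor at percentile 75, Axin2, Lgr5, Nkd1 and Sp5 gave no value, nor did Glul without probe sets ending in _s_at, _x_at or _a_at. The median of Wnt targets of other tissues was 1.21 with the floor at percentile 75. That of secreted and surface inhibitors, -0.05 as reported, was -0.60 with that floor, -0.41 with none and -0.33 with the pseudocount, but 0.16 with the floor at percentile 25, 0.13 with the probe sets of those endings omitted and 0.09 with hepatocyte markers set to 0. Medians of the receptors ranged from -0.04 to 0.18 and of the nuclear complex from -0.11 to 0.11. That of T, B and NK markers was 1.07 with quantile normalization, 1.94 with no floor, 1.30 with a pseudocount of 50 and 1.23 averaged over probe sets. Counts in the other lists moved as follows over the settings, higher before lower where both moved. The settings include the 1.5-fold and 3-fold thresholds. A looser threshold can only raise a count and a stricter one can only lower it. Ligands ranged from 0 to 1 and from 0 to 2, inhibitors from 0 to 2 and from 0 to 3 (2 with no floor, 1 with the pseudocount), and Wnt targets of other tissues from 2 to 5 and from 0 to 1. Receptors ranged from 0 to 2 lower, the destruction complex from 0 to 1 higher, and the nuclear complex from 0 to 2 and from 0 to 1. Other pericentral genes ranged from 0 to 2 and from 0 to 5 (1 with the pseudocount or the floor at percentile 75), and periportal genes from 0 to 1 and from 0 to 4. Higher endothelial markers ranged from 0 to 4, macrophage markers from 2 to 12, T, B and NK markers from 1 to 9, and cholangiocyte markers from 0 to 2. The extremes of the endothelial and macrophage counts were those at 3-fold and 1.5-fold. With the threshold kept at 2-fold, endothelial markers ranged from 1 to 3 and macrophage markers from 6 to 8. Stellate markers ranged from 2 to 7 higher (3 with averaged or omitted probe sets) and from 0 to 1 lower. The causes were not tested. No paired analysis was possible because each genotype had 1 array and the labels carry no replicate numbers. Signal over background limits Sp5, Nkd1 and the 8 probe sets under the floor.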
